A study of Mus musculus with 15 samples.

Results

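The genes described here encode the receptors with which white blood cells hold on to vessel walls, tissue and stroma: the integrin subunits Itgam, Itgal, Itga4, Itgb2, Itgb1 and Itgb7, the P-selectin ligand Selplg and the chemokine receptor Cxcr4. A member was measured by every probeset (a short stretch of a transcript read by its own probes) that carried its symbol and no other, and its value was the median log2 intensity over those probesets. Of the 8 listed genes 7 had a value, out of 16299 genes with a value on the array. Itga4 had none, because all 32 probesets that name it also name its neighbour Cerkl.

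RNA came from 15 spleen samples. The mice were of the strain Bl/6 Taconic and had acute promyelocytic leukaemia (APL), in which cells are arrested at the promyelocyte stage of neutrophil formation. The labels form 1 group, with no healthy spleen and no treated animals, and give no transgene, allele, age or sex. Amplified and labelled cDNA was read on Mouse Exon 1.0 ST arrays of Affymetrix. Nothing in the labels says that the tumours came from separate animals. Each p-value therefore rests on the spread between these 15 samples, part of which may be technical.

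Integrins are pairs of 1 alpha and 1 beta subunit, and a subunit reaches the cell surface only with its partner. Itgam with Itgb2 forms Mac-1, the adhesion and complement receptor of neutrophils and macrophages, and Itgal with Itgb2 forms LFA-1, which binds ICAM proteins. Itga4 pairs with Itgb1 to form VLA-4, which binds VCAM-1 and fibronectin, or with Itgb7 to form a receptor for gut homing. Selplg lets leukocytes roll on selectins once its sugars have been built, and Cxcr4 holds myeloid cells in the bone marrow through its ligand Cxcl12.

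The promoter windows of Itgam and Itgb7 are printed because the gene value of Itgam, a median over probesets, had the largest SD between tumours among the members and that of Itgb7 the smallest. Each is the 250 bases before the annotated start in RefSeq GRCm38.p6, which holds windows for 5 of the 8 members. Itgam lies at chr7:128062390-128062639 on the plus strand and Itgb7 at chr15:102231936-102232185 on the minus strand, and both are written 5′ to 3′ along the gene. Capitals mark GAGGAA on either strand, the core letters read by PU.1, the transcription factor of myeloid cells.
Itgam: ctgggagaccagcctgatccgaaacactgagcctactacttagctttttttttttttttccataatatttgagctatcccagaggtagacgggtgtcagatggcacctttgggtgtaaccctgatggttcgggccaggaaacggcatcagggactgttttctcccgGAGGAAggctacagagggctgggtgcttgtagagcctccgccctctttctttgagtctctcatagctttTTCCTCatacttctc
Itgb7: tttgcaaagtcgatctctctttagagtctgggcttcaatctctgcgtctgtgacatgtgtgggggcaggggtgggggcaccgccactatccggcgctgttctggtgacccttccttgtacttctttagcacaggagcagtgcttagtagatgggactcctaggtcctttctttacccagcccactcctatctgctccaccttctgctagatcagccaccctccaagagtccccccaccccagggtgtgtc
The Itgam window held GAGGAA once on each strand, and the Itgb7 window did not hold these letters. Of the windows not printed, that of Itgb1 held GAGGAA once, and those of Itga4 and Cxcr4 did not hold it. Of 32817 windows of the same length, 23.3% held GAGGAA on at least 1 strand. TTGCNNAA, the letters of C/EBP sites, stood in 9.57% of the windows and in neither of the printed ones. These matches describe letters and are not measured binding.

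The signals of 2 arrays stood apart from the rest. The median deposited intensity was 108 on both tumor_9509 and tumor_9514, and between 120 and 129 on the other 13 arrays. Over 9779 detected genes (mean log2 value above 6.41, the 40th percentile of all genes) these 2 arrays correlated with each other at r = 0.949 and with no other array above 0.9, where all pairs of arrays spanned 0.846 to 0.97. No 2 arrays were identical, and the number of arrays limits the precision of every value. Of the markers of promyelocytes, all 9 measured primary granule genes were detected, with Mpo at 12.91 ± 0.27 (SD, n = 15). Genes of other spleen cells were also detected, among them 5 of 9 B cell, 8 of 10 T cell, 2 of 8 NK cell, 9 of 9 monocyte, 7 of 11 red pulp macrophage, 3 of 9 dendritic cell, 6 of 9 basophil, mast cell and eosinophil, 5 of 7 erythroid, 6 of 7 megakaryocyte and 5 of 10 endothelial and stromal markers. By its definition the limit was passed by 9779 of all 16299 genes with a value. Counts of detected genes, here and in the lists below, are therefore no evidence by themselves that a cell type was present. In whole spleen RNA, fewer cells of a type and less RNA per cell cannot be told apart.

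How much the genes varied between tumours differed within the family, from Itgb7, whose SD exceeded that of 18.5% of detected genes, to Itgam at 97.7%. Over the members the SDs had a median of 0.575 log2 units, against 0.294 over the 9779 detected genes. Without tumor_9509 and tumor_9514 these medians were 0.326 for the members and 0.249 for detected genes. An SD above 0.5 was found for 4 of the 7 members and for 10.8% of detected genes. All 7 members had means above the detection limit. Levels of different genes rest on different probes and are not compared.

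**Figure D1:**
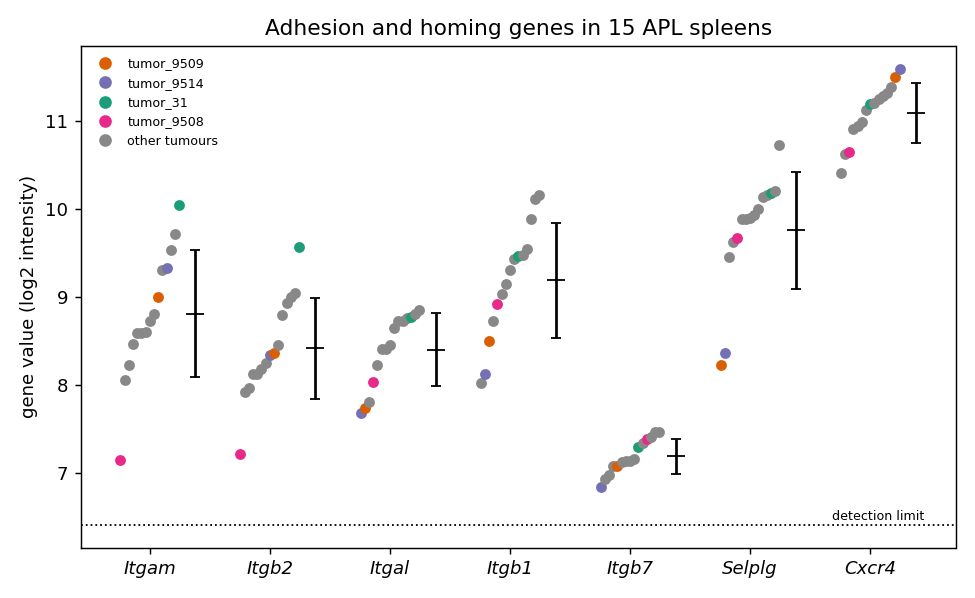
Gene value (log2 intensity) of each measured member in each of the 15 tumours, sorted within a gene; bars show mean and SD, and the dotted line is the detection limit of 6.41. Tumor_9508 is lowest and tumor_31 highest for both Itgam and Itgb2, and tumor_9509 and tumor_9514 stand below all others for Selplg.

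Itgam, the alpha subunit of Mac-1, ranged from 7.15 in tumor_9508 over a median of 8.72 to 10.04 in tumor_31, with a mean of 8.81 ± 0.72 (SD, n = 15). Tumor_9508 stood 0.908 log2 units below the next tumour. Most of its 31 probesets moved alike, though probeset 5586207 (mean 8.27) stayed nearly flat, with an SD of 0.2. In tumor_9508 all 31 lay below their own median over the tumours and 27 were the lowest of 15, while in tumor_31 all 31 lay above it and 28 were the highest. The SD of Itgam exceeded that of 97.7% of detected genes. With tumor_9509 and tumor_9514 left out the SD was 0.76.

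Itgb2, the beta subunit shared by Mac-1 and LFA-1, ranged from 7.21 in tumor_9508 over a median of 8.34 to 9.56 in tumor_31, with a mean of 8.42 ± 0.58 (SD, n = 15). The same tumours thus formed both ends as for Itgam. Of its 16 probesets, 14 were the lowest of 15 in tumor_9508 and 14 were the highest in tumor_31.

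Itgal, the alpha subunit of LFA-1, ranged from 7.68 in tumor_9514 over a median of 8.45 to 8.85 in tumor_9523, with a mean of 8.40 ± 0.41 (SD, n = 15). The low end was held by tumor_9514, tumor_9509 (7.74) and tumor_36 (7.80), followed by tumor_9508 (8.03), and the upper tumours lay close together. After quantile normalization of the arrays tumor_36 was the lowest, at 7.81, and the SD was 0.29.

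Itgb1, the beta subunit of VLA-4 and of many receptors for matrix, ranged from 8.02 in tumor_33 over a median of 9.31 to 10.16 in tumor_36, with a mean of 9.19 ± 0.65 (SD, n = 15). Its extremes were other tumours than those of Itgam and Itgb2, and no wide gap separated any tumour from the next. In tumor_33 all 19 probesets lay below their median and 13 were the lowest of 15, and in tumor_36 all 19 lay above it and 14 were the highest.

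Itgb7, the beta subunit used in gut homing, ranged from 6.84 in tumor_9514 over a median of 7.14 to 7.47 in tumor_29, with a mean of 7.19 ± 0.20 (SD, n = 15). By this median the tumours formed a narrow band close above the detection limit. Brighter probesets of the gene varied more: 4879889 (mean 10.12), 4603665 (9.44), 4354335 (9.24) and 5368854 (8.17) had SDs of 0.63, 0.62, 0.64 and 0.69, and all 4 were highest in tumor_9523, whereas 5319416 (9.26) had an SD of 0.31. These 5 probesets were picked after their values were seen. Only 4 of its 18 probesets correlated with the gene value above 0.5, with a median r of 0.30. In the order above, the 4 variable bright probesets had r = 0.48, 0.35, 0.55 and 0.54, and 5319416 had -0.15. The gene value thus follows few of the probesets closely. It follows the bright ones at best in part and does not show the size of their spread.

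Selplg, the ligand on which leukocytes roll, ranged from 8.22 in tumor_9509 over a median of 9.90 to 10.72 in tumor_9500, with a mean of 9.75 ± 0.67 (SD, n = 15). Tumor_9509 and tumor_9514 (8.36) stood 1.09 log2 units or more below the remaining 13 tumours, which lay between 9.45 and 10.72. Without these 2 arrays the SD was 0.32. After quantile normalization both were still the lowest, at 8.65 in tumor_9509 and 8.74 in tumor_9514, with the others between 9.34 and 10.66. The part that the lower signal of these 2 arrays plays in the Selplg values was not tested beyond that.

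Cxcr4, the receptor for Cxcl12, ranged from 10.41 in tumor_9504 over a median of 11.19 to 11.59 in tumor_9514, with a mean of 11.09 ± 0.34 (SD, n = 15). Tumor_9514 and tumor_9509, the arrays with the lowest overall signal, were its highest. They remained so after quantile normalization, at 11.53 in tumor_9514 and 11.52 in tumor_9509, with the others between 10.51 and 11.44. Only 4 probesets measure Cxcr4, and all 4 lay above their median in tumor_9514. Cxcl12 itself averaged 5.52 ± 0.32 (SD, n = 15), under the detection limit.

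Most probesets of a gene moved together for every member but Itgb7. The median correlation of a probeset with its gene value was 0.94 for Itgam, 0.92 for Itgb2, 0.85 for Itgal, 0.88 for Itgb1, 0.90 for Selplg and 0.92 for Cxcr4. The gene value contains these probesets, so the correlations describe agreement and carry no test. Splitting the probesets of a gene into 2 sets gave mean values that correlated between 0.874 for Itgb7 and 0.994 for Itgb2 over the 15 tumours.

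**Figure D2:**
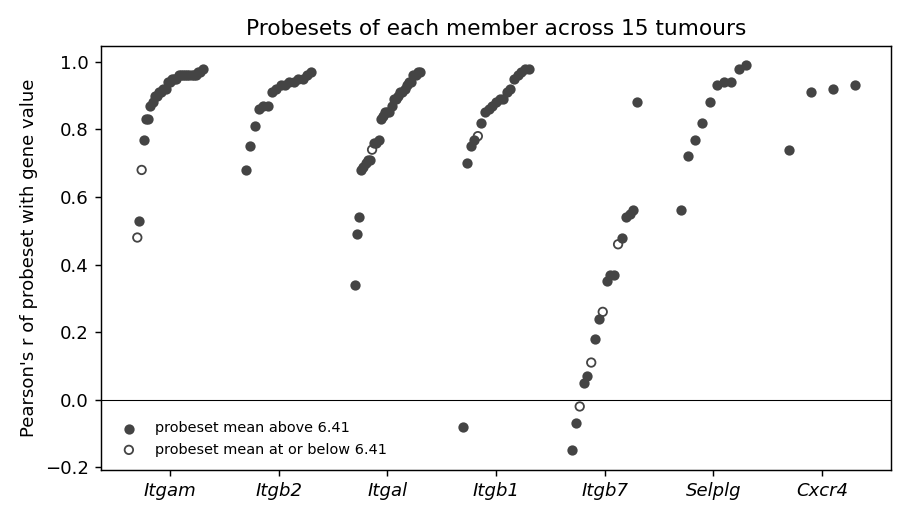
Pearson's r over 15 tumours between each probeset and the value of its gene, sorted within a gene; filled points are probesets with a mean above the detection limit and open points those at or below it. Itgb7 probesets spread from -0.15 upwards, and 1 detected Itgb1 probeset lies at -0.08.

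The alpha and beta subunits of one receptor were compared next, since both are needed at the surface. Of the 28 pairs among 8 members, 21 could be computed, 14 of them with a positive r. A pair was called where the larger of its 2 adjusted p-values (limma, Benjamini-Hochberg over all genes and all 7 fits) was under 0.05. No pair was called, the smallest adjusted p being 0.0761, and 5 pairs had an unadjusted permutation p under 0.05.

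Itgam and Itgb2, the subunits of Mac-1, gave r = 0.65 (two-sided permutation p = 0.00943) and rho = 0.48 (permutation p = 0.0711) over 15 tumours, with limma's adjusted p of 0.0761. The size of r depended on the 2 tumours at its ends: without tumor_31 and tumor_9508, r was 0.15. These tumours are the extremes of both genes, so leaving them out also narrows both ranges, which by itself can lower r. Within the 10 tumours with a 4-digit number r was 0.67, and without tumor_9509 and tumor_9514 it was 0.68. Leaving out single tumours gave values between 0.45 and 0.72.

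Itgal and Itgb2, the subunits of LFA-1, gave r = 0.45 (permutation p = 0.0954) and rho = 0.38 (permutation p = 0.166), with limma's adjusted p of 0.327. Without tumor_31 and tumor_9508, the tumours farthest from the Itgb2 median, r was 0.31. It was 0.37 among the tumours numbered with 4 digits, and 0.38 to 0.52 when single tumours were left out. The Itga4 pairs of VLA-4 and of the gut homing receptor could not be computed.

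The gene values of Itgam and Itgb7 ran in opposite directions, with r = -0.56 (permutation p = 0.0295) and rho = -0.65 (permutation p = 0.00982), though limma's adjusted p was 0.286. Without tumor_31 and tumor_9508 r was -0.75, and among the 10 tumours with 4 digits it was -0.76. Itgb7 and Cxcr4 gave r = -0.56 (permutation p = 0.0292) and rho = -0.52 (permutation p = 0.0494), with an adjusted p of 0.275 from limma. That r was -0.76 without the 2 tumours farthest from the Itgb7 median, -0.76 among the 10 tumours numbered with 4 digits and -0.33 after quantile normalization. Without tumor_9509 and tumor_9514, which carry 4-digit numbers, r was -0.53 for Itgam with Itgb7 and -0.41 for Itgb7 with Cxcr4. Both pairs rest on the Itgb7 gene value, which follows its bright probesets at best in part. The bright probesets were not tested against Itgam or Cxcr4.

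Itgal and Selplg gave r = 0.61 (permutation p = 0.0146) and rho = 0.29 (permutation p = 0.302), with limma's adjusted p of 0.116. The 2 farthest tumours were tumor_9509 and tumor_9514, and without them r was 0.02. Itgb1 and Selplg gave r = 0.53 (permutation p = 0.0401) and rho = 0.50 (permutation p = 0.0632), with limma's adjusted p of 0.193. Itgb1 with Selplg had r = 0.58 without tumor_33 and tumor_9514, its farthest tumours, and 0.11 without tumor_9509 and tumor_9514. Within the tumours with a 4-digit number, r was 0.76 for Itgal with Selplg and 0.71 for Itgb1 with Selplg. Tumor_9509 and tumor_9514 both carry 4-digit numbers, so this setting keeps them in.

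**Figure D3:**
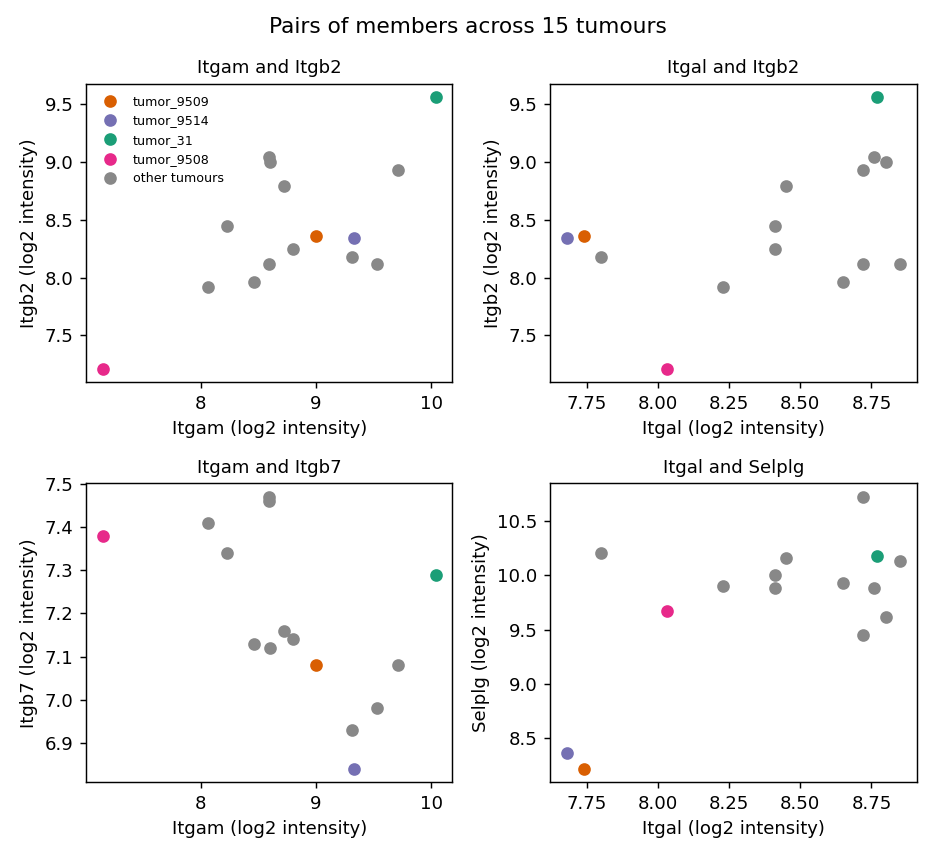
Gene values (log2 intensity) of 4 pairs of members in the 15 tumours, 1 point per tumour. In the Itgam and Itgb2 panel tumor_9508 and tumor_31 lie at the 2 ends, and in the Itgal and Selplg panel tumor_9509 and tumor_9514 lie apart from the other 13.

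Each member was then set against every other detected gene to see which genes differ between tumours along with it (limma, 9778 genes per member, adjusted over all 7 fits). Itgam went with 119 genes (1.22% of those tested), 108 with it (1.1%) and 11 against it (0.112%). Itgb2 went with 73 genes (0.747%), 72 of them with it (0.736%) and 1 against it (0.0102%). Itgb1 went with 116 (1.19%), of which 115 ran with it (1.18%). Itgb7 went with 34 genes (0.348%), 20 with it (0.205%) and 14 against it (0.143%). Cxcr4 went with 60 (0.614%), 28 with it (0.286%) and 32 against it (0.327%). Itgal and Selplg had the highest counts, 691 genes (7.07%) and 1014 genes (10.4%), of which 687 (7.03%) and 1000 (10.2%) ran with the member. Against the member ran 4 genes for Itgal (0.0409%) and 14 for Selplg (0.143%). The adjustment limits the share of false calls over all 7 fits together, not within the fit of a single member. Most calls came from Itgal and Selplg, and the cutoff that results applies to every member. Among the 34 genes of Itgb7, the 60 of Cxcr4 and the 73 of Itgb2 the share of false calls may therefore be higher. That share was not tested for any member.

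Fewer genes were called for every member with the 2 arrays that stand apart left out, a setting that also has fewer samples. The adjustment is shared by all 7 fits, so calls for 1 member can fall because fewer genes are called with the others. Without tumor_9509 and tumor_9514 limma called 21 genes for Itgam (0.215%), 18 of them among the 119. It called 4 for Itgb2 (0.0409%), 6 for Itgal (0.0614%), 1 for Itgb1 (0.0102%) and 2 for Cxcr4 (0.0205%). It called 0 for Selplg and 0 for Itgb7. At an unadjusted p under 0.05, in place of an adjusted one, the numbers of genes over 13 and over 15 tumours were 1254 and 840 for Itgam and 1010 and 744 for Itgb2, so they were higher without the 2 arrays. They were lower for the other members: 1137 and 3147 for Itgal, 556 and 1916 for Itgb1, 420 and 1051 for Itgb7, 588 and 3357 for Selplg and 898 and 1261 for Cxcr4. The 4 genes for Itgb2 were Plxnc1, Trem1, Map3k3 and 4732465J04Rik, all 4 among its 73.

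**Figure D4:**
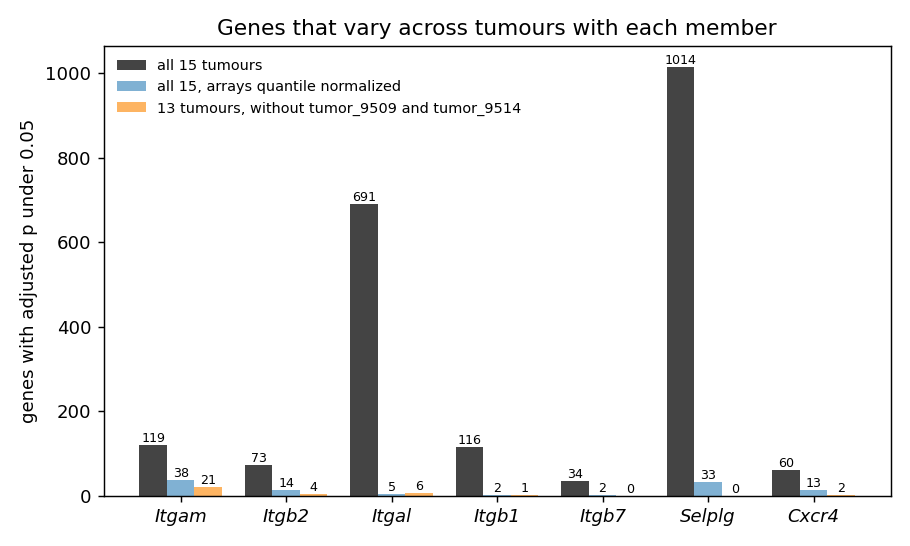
Number of genes called with each member (limma, adjusted p under 0.05) over all 15 tumours, over all 15 after quantile normalization of the arrays, and over 13 tumours without tumor_9509 and tumor_9514. Without the 2 arrays 0 genes were called for Selplg, 6 for Itgal and 21 for Itgam.

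By the highest r, the genes whose pattern was most like Itgam were Ceacam2, an adhesion molecule of the carcinoembryonic antigen family, at r = 0.94 and rho = 0.92; Glrx, a glutaredoxin, at r = 0.90 and rho = 0.90; and Arrb2, the beta-arrestin that desensitises chemokine receptors, at r = 0.90 and rho = 0.77. Per log2 unit of Itgam, Ceacam2 changed by 0.64 ± 0.07 (slope ± SE, adjusted p = 0.00169), Glrx by 0.39 ± 0.07 (adjusted p = 0.00781) and Arrb2 by 0.58 ± 0.08 (adjusted p = 0.00403). The r of these 3 genes without tumor_9509 and tumor_9514 was 0.95, 0.92 and 0.90, and without tumor_31 and tumor_9508 it was 0.92, 0.89 and 0.75, the last with an adjusted p of 0.085. Ceacam2 has close relatives in the genome, whose transcripts its probes may also read. The lowest r was that of Mtres1, a mitochondrial transcription regulator, at r = -0.85 (adjusted p = 0.0137), which was not called with the first or the second of these pairs of tumours left out (r = -0.85 and -0.68, adjusted p = 0.0938 and 0.208).

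Late neutrophil genes were among those called with Itgam, and primary granule genes were not. Of 12 secondary granule genes 6 were called, all with Itgam: Ltf (lactoferrin), Camp (cathelicidin), Lcn2 (lipocalin 2), Ngp, the collagenase Mmp8, and Ltb4r1, a leukotriene receptor rather than a granule protein. Of 12 mature neutrophil genes 5 were called with it, the chemokine receptor Cxcr2, the formyl peptide receptors Fpr1 and Fpr2, the gelatinase Mmp9 and Retnlg. Of 9 primary granule genes 0 were called by limma, against 1.22% of all tested genes. An unadjusted limma p under 0.05 was found for 2 of the 9, against 840 of all 9778 tested genes. The median r with Itgam was 0.72 for the secondary granule list and 0.67 for the mature neutrophil list, against -0.04 for the primary granule list and 0.00 over all detected genes.

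Ltf ranged from 7.67 in tumor_9508 over a median of 10.64 to 12.24 in tumor_31 and changed by 1.49 ± 0.21 per log2 unit of Itgam (adjusted p = 0.00403). Fpr1, read by 1 probeset, ranged from 6.61 in tumor_9508 over a median of 9.07 to 11.56 in tumor_9514, with a slope of 1.72 ± 0.30 (adjusted p = 0.00791). Mmp9 ranged from 6.49 in tumor_9504 over a median of 8.05 to 10.76 in tumor_31, with a slope of 1.32 ± 0.21 (adjusted p = 0.00616). The tumours lowest and highest for Itgam were thus also at or near the ends of these genes, which were picked for display after their values were seen. Without tumor_9509 and tumor_9514, 2 secondary granule genes (Ltf and Ltb4r1) and 3 mature neutrophil genes (Fpr1, Mmp9 and Csf3r) were called. Without tumor_31 and tumor_9508, 0 secondary granule genes and 2 mature neutrophil genes (Fpr1 and Mmp9) were called. In that setting 6 secondary granule genes had an unadjusted limma p under 0.05, against 513 of all 9778 tested genes. Ltf had an adjusted p of 0.0526 there. The list's median r was then 0.59, with Lcn2 at 0.75, Camp at 0.74 and Ltf at 0.71. These 2 tumours are the extremes of Itgam, so leaving them out also narrows its range.

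**Figure D5:**
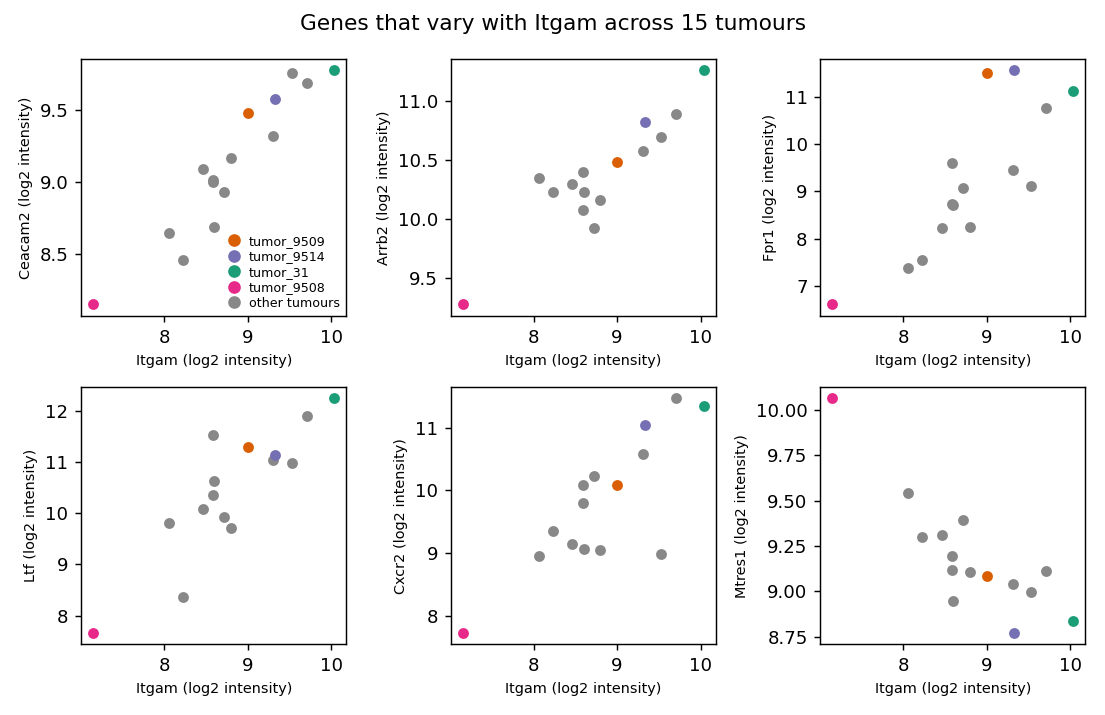
Gene values (log2 intensity) of 6 genes against Itgam in the 15 tumours, 1 point per tumour. Ceacam2, Arrb2, Fpr1, Ltf and Cxcr2 are lowest in tumor_9508, where Itgam is lowest, and Mtres1 is highest there.

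Itgb2 was most like Plxnc1, a semaphorin receptor (r = 0.92, rho = 0.92), Arsg, a sulphatase of the lysosome (r = 0.87, rho = 0.71), and Cd74, the invariant chain of MHC class II (r = 0.85, rho = 0.80). The slope of Plxnc1 was 0.83 ± 0.10 per log2 unit of Itgb2 (adjusted p = 0.00327), with r = 0.93 without tumor_9509 and tumor_9514 and 0.90 without tumor_31 and tumor_9508. Arsg (adjusted p = 0.0136) and Cd74 (adjusted p = 0.0101) were not called with the first or the second of these pairs left out. Without the first pair r was 0.88 for Arsg and 0.86 for Cd74, as large as over 15 tumours, and without the second it was 0.66 and 0.73. Slc10a7, a solute carrier, had the lowest r, at -0.75, and was not called (adjusted p = 0.0697). From the neutrophil lists Ltf, Mmp8, Retnlg and Trem1 went with Itgb2. Of these, Trem1, a receptor that amplifies neutrophil responses, was still called without tumor_9509 and tumor_9514 (adjusted p = 0.0324), and none without tumor_31 and tumor_9508.

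Itgal was most like Xpo5, the exporter of microRNA precursors (r = 0.93, rho = 0.90), Glb1, the lysosomal beta-galactosidase (r = 0.93, rho = 0.99), and Coro7, a coronin (r = 0.91, rho = 0.88), and least like Tbata (r = -0.89, rho = -0.75). Their adjusted p-values were 0.00403, 0.00183, 0.00403 and 0.0159. Over the 13 other tumours than tumor_9509 and tumor_9514 none of the 4 was called, though r stayed at 0.92, 0.87, 0.84 and -0.81. Kit, the receptor of progenitors and mast cells, and Hdc, the histamine-forming enzyme of mast cells and basophils, went with Itgal over all 15 tumours (adjusted p = 0.0463 and 0.0236) but were not called without those 2 arrays (adjusted p = 0.436 and 0.232), where r was 0.59 and 0.69, against 0.70 and 0.74. In that setting Slpi, a protease inhibitor of neutrophils, was called with Itgal (r = 0.95, adjusted p = 0.0022), where over all 15 tumours its r was 0.36.

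Itgb1 was most like Phka2, a subunit of phosphorylase kinase (r = 0.85, rho = 0.84), Adh5, an alcohol dehydrogenase (r = 0.84, rho = 0.78), and Rexo5, an RNA exonuclease (r = 0.84, rho = 0.71), and least like the adaptor Stap1 (r = -0.75, rho = -0.68). All 4 were called over 15 tumours, with adjusted p-values of 0.0179, 0.0178, 0.0118 and 0.0379, and none without tumor_9509 and tumor_9514, where r was 0.78, 0.77, 0.77 and -0.81. By limma 0 of 152 detected genes of the pathway and cell lists were called with Itgb1, against 1.19% of all tested genes. An unadjusted limma p under 0.05 was found for 21 of the 152, against 1916 of all 9778 tested genes.

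Itgb7 was most like Rrp9, a factor of ribosomal RNA processing (r = 0.88, rho = 0.86), Prr14l (r = 0.82, rho = 0.80) and Bloc1s6, a subunit of a complex for lysosome-related organelles (r = 0.82, rho = 0.80). Mis18a, which helps mark centromeres, ran against it at r = -0.85 and rho = -0.89 and changed by -2.38 ± 0.40 per log2 unit of Itgb7 (adjusted p = 0.0074). Its r was again -0.85 without tumor_9509 and tumor_9514, with an adjusted p of 0.0518. From the lists the protease gene Ctsc went with Itgb7 and Rgs2 against it (adjusted p = 0.0215 and 0.0418). All these relations are with the Itgb7 gene value, which follows its bright probesets at best in part.

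Selplg was most like Pi4kb, a phosphatidylinositol kinase (r = 0.96, rho = 0.87), Ppt1, a lysosomal thioesterase (r = 0.94, rho = 0.79), and Med12, a Mediator subunit (r = 0.94, rho = 0.69), with adjusted p-values of 0.00405, 0.00169 and 0.0112. Over the 13 other tumours than tumor_9509 and tumor_9514 r was 0.80, 0.74 and 0.76, with adjusted p-values of 0.497, 0.348 and 0.641. Ppt1 was called after quantile normalization (adjusted p = 0.0131), and Pi4kb and Med12 were not. Plekha6 had the lowest r, at -0.83, and was not called (adjusted p = 0.0503).

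Cxcr4 was most like Pfn1, the actin-binding profilin (r = 0.85, rho = 0.76), Clec12a, an inhibitory lectin receptor of myeloid cells (r = 0.84, rho = 0.81), and Gpbp1 (r = 0.84, rho = 0.81). Pfn1 changed by 0.74 ± 0.15 per log2 unit of Cxcr4 (adjusted p = 0.0159) and Clec12a by 0.61 ± 0.14 (adjusted p = 0.0248). Neither was called without tumor_9509 and tumor_9514, where r was 0.79 and 0.85. Gpbp1 and Emc8, the gene with the lowest r at -0.86, were not called over 15 tumours (adjusted p = 0.0629 and 0.105). Camp and Rgs2, a regulator that switches off G proteins, went with Cxcr4 (adjusted p = 0.0312 and 0.0451), and neither was called without those 2 arrays, where r was 0.66 for Camp and 0.74 for Rgs2, against 0.76 and 0.71 over 15 tumours.

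Over all pathway and cell lists together, 16 of 152 detected genes were called with Itgam, against 1.22% of all tested genes. Of the same 152, 6 were called with Itgb2 (0.747% of all tested genes) and 6 with Itgal (7.07%). There were 2 called with Itgb7 (0.348%), 12 with Selplg (10.4%) and 2 with Cxcr4 (0.614%). For Itgal and Selplg the share called was thus lower in the lists than over all genes. Calls of list genes with these members are therefore no more frequent than the background. The lists of genes that act with the family follow. Of 10 measured integrin subunits outside the family 6 were detected, among them Itgb5 at 7.97 ± 0.54 and the platelet subunit Itga2b at 7.89 ± 0.73 (SD, n = 15 here and below), and Itgax, Itgae, Itga2 and Itga9 were not. Itgb3 and Itgb5 were the 2 called, both with Selplg, and Itgb5 had r = -0.01 with Selplg without tumor_9509 and tumor_9514. Itgb5 was lowest in tumor_9509, at 6.74.

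All 16 measured genes that switch integrins on were detected. Rap1a averaged 11.43 ± 0.20 and Rap1b 11.03 ± 0.27, both small GTPases of that switch. The exchange factor Rasgrp2 averaged 9.20 ± 0.48, and the adaptor Fyb, which spanned 6.64 in tumor_9492 to 10.38 in tumor_33, averaged 8.73 ± 0.95. Fermt3, the kindlin of blood cells, went with Selplg together with Plcg2, Rasa3 and Vav1. The kinase Fgr and the adaptor Skap2 went with Itgam, Skap2 also with Itgb2, and Rapgef1 with Itgal. Of these 8 calls, that of Fgr with Itgam was also made without tumor_9509 and tumor_9514 (adjusted p = 0.0455). There Skap2 had r = 0.81 with Itgam and 0.79 with Itgb2, where both were 0.79 over 15 tumours, and Rapgef1 had 0.64 with Itgal, against 0.82. With Selplg r was 0.56 for Fermt3, 0.35 for Plcg2, 0.50 for Rasa3 and 0.49 for Vav1, against 0.86, 0.84, 0.74 and 0.80 over 15 tumours.

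Of 16 ligands of integrins 10 were detected. Vcam1, the ligand of VLA-4, spanned 8.03 in tumor_9509 to 10.74 in tumor_33 (mean 9.71 ± 0.89), and Thy1, a surface protein of T cells, progenitors and stroma, spanned 6.93 in tumor_9523 to 10.92 in tumor_36 (mean 8.91 ± 1.23). Vcam1 is also a red pulp macrophage marker and went with Selplg (adjusted p = 0.0358), but not without the 2 arrays that stand apart (adjusted p = 0.842). Its r was 0.26 there and 0.71 over 15 tumours. Icam2 was called with Itgal over 15 tumours (r = 0.76, adjusted p = 0.0272) and not over 13 (r = 0.62, adjusted p = 0.441).

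For selectin binding, 5 of 8 measured selectins and ligands were detected, with Cd34 at 9.69 ± 0.46 and Spn (CD43) at 8.83 ± 0.38. By limma 0 of the 5 were called with any member. With Selplg 3 of the 5 had an unadjusted p under 0.05, as did 3357 of all 9778 tested genes. Of 14 enzymes and transporters that build the sugars and sulphates of selectin ligands 11 were detected, while Fut7, the fucosyltransferase that finishes these sugars, was not. Galnt1 averaged 8.79 ± 0.47, the GDP-fucose transporter Slc35c1 8.69 ± 0.51, Fut4 7.44 ± 0.53 and Gcnt1 7.11 ± 0.52. Slc35c1 and St3gal3 went with Selplg, Galnt1 and Slc35c1 with Itgal, and C1galt1 with Itgam, and none of these was called without tumor_9509 and tumor_9514. In that setting r was 0.78 for C1galt1 with Itgam (0.75 over 15 tumours) and 0.75 for St3gal3 with Selplg (0.79), but -0.11 for Slc35c1 with Selplg (0.70). With Itgal it was 0.65 for Galnt1 (0.82) and 0.54 for Slc35c1 (0.78).

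Of 22 genes around Cxcr4 (ligand, other chemokine receptors, G proteins, arrestins and regulators) 17 were detected. The G protein subunit Gnai2 averaged 11.52 ± 0.27 and Arrb2 10.38 ± 0.46. The chemokine receptors Ccr1, from 4.78 in tumor_9520 to 8.45 in tumor_9500 (mean 6.71 ± 1.17), and Cxcr2, from 7.73 in tumor_9508 to 11.47 in tumor_9500 (mean 9.79 ± 1.04), varied widely. Arrb2, Cxcr2 and Rgs2 went with Itgam, and Ccr1 with Itgb2 (adjusted p = 0.0345). Arrb2 alone of these 4 was called without tumor_9509 and tumor_9514 (adjusted p = 0.0278), though r there was 0.80 for Cxcr2 and 0.71 for Rgs2 with Itgam and 0.79 for Ccr1 with Itgb2, against 0.81, 0.72 and 0.71 over 15 tumours.

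Few markers of other cells were called with a member. Each list is given by its detected gene with the highest mean: S100a8 at 12.84 ± 0.12 for secondary granules, Slpi at 12.40 ± 0.80 for mature neutrophils, Myb at 10.35 ± 0.40 for progenitors, Ighm at 9.86 ± 0.60 for B cells, Tcf7 at 8.48 ± 0.39 for T cells, Gzma at 7.37 ± 1.00 for NK cells and F13a1 at 9.34 ± 0.72 for monocytes. Likewise Bst2 averaged 8.29 ± 0.59 for dendritic cells, Prg2 10.94 ± 1.43 for eosinophils and their relatives, Hbb-b1 11.21 ± 0.94 for erythroid cells and Pecam1 8.65 ± 0.61 for endothelium. Tcf7 and Cd14 went with Selplg and Hbb-b1, a beta globin with near-identical copies, against it (adjusted p = 0.0152, 0.036 and 0.0144), and none was called without tumor_9509 and tumor_9514, where r was 0.65, 0.53 and -0.63, against 0.81, 0.71 and -0.78 over 15 tumours. Other T cell genes ran both ways with Selplg over 15 tumours: Cd3d at r = -0.42, Cd3g at -0.32, Cd5 at 0.30 and Cd6 at 0.24. So did monocyte genes, with Ccr2 at -0.17, Ly6c2 at -0.09, Csf1r at 0.41 and Ms4a6c at 0.42. The mean deviation of the red pulp macrophage list was lowest in tumor_9509 at -0.74, and its part in the Selplg values was not tested. For the mature neutrophil list it spanned -1.45 in tumor_9508 to 1.31 in tumor_31, the tumours at the ends of Itgam and Itgb2, and its part in those values was not tested.

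Whole chromosomes can shift in single tumours, so each gene was set against the median deviation of the other genes of its chromosome. Of 9745 genes with a chromosome 246 were called (2.52%), and 0 of the 7 members, of which Itgal had an unadjusted permutation p under 0.05. Itgal ran against the other 782 genes of chromosome 7 at r = -0.60 (permutation p = 0.0142, rho = -0.60), with an adjusted p of 0.154. Its r was -0.36 without tumor_9509 and tumor_9514. Itgam, on the same chromosome, had r = 0.18 (rho = 0.14). Cxcr4 gave r = 0.49 with chromosome 1 (permutation p = 0.0584, adjusted p = 0.286), and its rho of 0.75 was the largest of the members. Itgb1 had r = 0.45 with chromosome 8 (rho = 0.44) and Itgb2 0.32 with chromosome 10 (rho = 0.48). Selplg had r = 0.27 with chromosome 5 (rho = 0.19) and Itgb7 0.18 with chromosome 15 (rho = 0.14). Without those 2 arrays r was 0.61 for Cxcr4, 0.34 for Itgb1, 0.35 for Itgb2, -0.13 for Selplg, 0.01 for Itgb7 and 0.10 for Itgam.

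The titles number 5 tumours with 2 digits and 10 with 4 digits, without saying why. Itgb2 averaged 8.71 in tumours with a 2-digit number and 8.27 in those with a 4-digit number, a difference of 0.44 ± 0.28 (SE, limma, unadjusted p = 0.131). Selplg averaged 10.07 in tumours with a 2-digit number and 9.59 in those with a 4-digit number, a difference of 0.48 ± 0.32 (SE, limma, unadjusted p = 0.153). The other 5 members differed by 0.01 to 0.33 log2 units, and no member had an unadjusted p under 0.05. Over all 9779 genes limma called 0, with 227 at an unadjusted p under 0.05 (0% called).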

How the data were processed

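For each array the authors deposited linear intensity values, 1 for each probeset, ranging from 2.38 to 19380.5. RMA and the build mm9 are named without version in the submitters' processing notes; other settings are not given in the sources used here. Since RMA normalizes between arrays, no further scaling was applied before taking log2 intensity.

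Of 229581 probesets, 208397 carried 1 symbol, 3965 several and 17219 none in the platform annotation. Symbols were updated through the RefSeq gene table (14132 current, 2099 renamed, 68 unmatched), never onto another listed symbol. The gene value was the median over its probesets, and genes with a mean above the 40th percentile (6.41) were called detected.

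limma 3.58.1 (R 4.3.3, lmFit and eBayes) fitted each member as predictor over all detected genes, with Benjamini-Hochberg adjustment over all 68446 tests; pairs used 100000 permutations (numpy 2.4.6, scipy 1.17.1), whose smallest p is 1e-05. Correlations with the own chromosome were adjusted over 9745 genes, with a p from the t distribution; the permutation p of members is given beside it. Deviations there were taken from each gene's mean, a choice made after results with the gene's median had been seen. On simulated data the member fit recovered 18% of genes with a slope of 1 SD and 96% with 2 SD. That simulation drew genes independently, without arrays that stand apart, and planted slopes on Itgam alone. Its rates may therefore not hold for the real fits. Also on simulated data, the chromosome step recovered 0% of 200 genes sharing a shift of 0.5 SD and 87.5% at 1.5 SD. Weak shared shifts would thus be missed.

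Named were the members, per member the 3 genes with at least 3 probesets and the highest r and the 1 with the lowest, the probeset deviating most, per pathway list the 2 genes of highest mean and the 2 of largest SD, and per marker list the gene with the highest mean; called genes of the lists are named besides. Members and lists were chosen with earlier results of these data known. Alternatives were the mean over probesets, brighter probesets, centring, quantile normalization, no filter, and leaving out tumours.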

Additional observations from a re-analysis of the deposited data

How the results depend on the processing

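Counts of genes called with a member were the least stable results. Quantile normalization gave 38 for Itgam, 14 for Itgb2, 5 for Itgal, 2 for Itgb1, 2 for Itgb7, 33 for Selplg and 13 for Cxcr4. Without tumor_9509 and tumor_9514 the counts were 21, 4, 6, 1, 0, 0 and 2 in the same order. With arrays centred on their median Itgb2 had 43, Itgal 217, Itgb1 25, Itgb7 15 and Selplg 453. Without the filter on dim genes Itgal had 413, Itgb1 47, Itgb7 18 and Cxcr4 39, where more genes were tested. With the mean over probesets Itgb1 had 56 and Cxcr4 127. Among tumours with a 4-digit number Itgam had 38, Itgb2 17, Itgb1 368, Itgb7 13 and Selplg 613, over fewer samples. Without tumor_31 and tumor_9508, chosen after seeing the data, Itgam had 26 and Itgb2 16, of which 17 and 1 were among the genes called over 15 tumours. Through the shared adjustment the count of 1 member also depends on those of the others. The cause of these changes was not tested otherwise.

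Of the pairs, 1 was called among tumours with a 4-digit number, Itgal with Itgb1 at r = 0.88, and 0 in the other settings. The count of genes called with their own chromosome was 703 with the mean over probesets, 447 with brighter probesets and 496 after quantile normalization. It was 111 without the filter, 417 without tumor_9509 and tumor_9514, and 7 among tumours with a 4-digit number. With deviations from the gene's median, used before the gene's mean was chosen, it was 400. No member was called with its own chromosome in any of these settings. Leaving out single tumours gave r between 0.45 and 0.72 for Itgam with Itgb2 and between 0.38 and 0.52 for Itgal with Itgb2. Mean levels of all 7 members moved by less than 1 SD in every setting. Itgb7, close above the detection limit, and Cxcr4, with 4 probesets, are the least well measured. Background correction was not varied, since scanner files were not used here. No paired analysis was possible because the labels form 1 group.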

Other observations

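Some probesets departed from their gene. They were picked as the detected probeset whose difference from the gene value varied most between tumours, so their values are a description. Probeset 4938074 of Itgb1 spanned 6.58 in tumor_9529 to 7.37 in tumor_9504, with r = -0.08 to the gene, although Itgb1 itself spanned 8.02 to 10.16. Probeset 5586207 of Itgam stayed between 7.95 in tumor_9504 and 8.67 in tumor_9514, and in tumor_9508, where Itgam was lowest, it lay 0.94 log2 units above the gene value, against 1.53 below it in tumor_31.

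Other probesets varied more than their gene. Probeset 5508769 of Selplg spanned 4.33 in tumor_9509 to 8.24 in tumor_9500, probeset 5302195 of Itgb2 5.15 in tumor_9508 to 8.28 in tumor_9500, and probeset 4379633 of Itgal 6.83 in tumor_9514 to 9.60 in tumor_31. Probeset 5368854 of Itgb7 spanned 6.69 in tumor_9514 to 9.40 in tumor_9523, where the whole gene spanned 6.84 to 7.47. Probeset 4967023 of Cxcr4 spanned 8.83 in tumor_9504 to 10.88 in tumor_9514. Which exon or splice form these probesets read was not analysed here.

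Itgal and Itgb1 gave r = 0.42 over 15 tumours (permutation p = 0.12) and rho = 0.50 (permutation p = 0.0601), with limma's adjusted p of 0.369. Within the 10 tumours with a 4-digit number r was 0.88 and the pair was called (adjusted p = 0.033). Without tumor_9509 and tumor_9514, both of which carry 4-digit numbers, r was 0.07.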
